A study of Arabis alpina with 27 samples.

Results

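The genes described here were expressed in the stem of A. alpina before cold, were at a higher level after long cold, and were still at a higher level 5 days after the plants had been returned to warmth. They were selected on CPM values (the count of a gene as a share of its library's total, scaled to a common library size and not corrected for gene length). A gene was a member if its mean before cold was at least 1 CPM and if all 12 libraries made at the end of 12 or 16 weeks of cold, or 5 days after either, exceeded 2 times that mean and every library made before cold. The rule was met by 196 of 17769 genes with a mean of at least 1 CPM before cold, out of 21641 genes in the count table.

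A. alpina is a perennial relative of A. thaliana, and the study asked how long cold prepares its upper stem internodes for adventitious roots. All plants belonged to the accession Pajares and were grown for 8 weeks in long days (LD, 16 h light at 20°C, nights at 18°C). Stem pieces of about 2 cm were taken at that point (0w), at the end of cold at 4°C under the same day length lasting 4 weeks (4w), 8 weeks (8w), 12 weeks (12w), 16 weeks (16w) or 21 weeks (21w), and 5 days after plants of the last 3 durations had been moved back to LD (12w+5dLD, 16w+5dLD and 21w+5dLD). Each of the 9 groups had 3 libraries, each from the pooled stems of several plants, so that n = 3 throughout. Plants of 0w were also younger than all the others, and no group of equal age without cold is used here, so the effects of cold and of age against 0w cannot be told apart. The hour of harvest is not given in the sources used here, and a pooled stem cannot tell more RNA per cell from more cells of a type.

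Library totals ranged from 16089542 to 22523390 counts. Summed counts of 21 genes for the secondary wall of xylem, the water-conducting wood of the stem, had a median of 4512 CPM at 0w. It was 284 CPM for 12w, 542 for 16w, 1701 for 12w+5dLD and 2098 for 16w+5dLD. All libraries after 0w had less than the lowest 0w library, at 3933 CPM. The part of this difference in the results was not tested, and no marker of xylem, phloem, cambium, epidermis or photosynthesis was a member. The median over all genes with a 0w mean of at least 1 CPM was 0.979 times the 0w level at both 12w and 16w, and 1.04 times at both 12w+5dLD and 16w+5dLD. The library labelled 21w+5dLD replicate 3 stood apart. Over the members, its log2(CPM + 1) values had a Pearson correlation of 0.917 with the mean of the 21w libraries and of 0.771 with the mean of the other 21w+5dLD libraries, whereas replicates 1 and 2 correlated better with the mean of the other 21w+5dLD libraries (0.892 and 0.900) than with that of 21w (0.837 and 0.838). Counts and tests over the members at 21w+5dLD are therefore given with and without it. Leaving out a library that is close to 21w favours larger differences from 21w.

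In plants, cold sets off several programmes. Compatible solutes such as proline and raffinose sugars accumulate, plastids are protected against excess light, the circadian clock loses amplitude, and long cold releases flowering. Many of these responses are reversed within hours or days of warmth, while others, such as vernalization, are kept by the plant. The clock itself is a loop in which morning-expressed MYB factors (LHY and its relatives) and PSEUDO-RESPONSE REGULATORS repress each other, and REVEILLE factors with LNK co-activators switch on evening genes. B-box zinc finger proteins act downstream of light and of the clock.

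Of 748 genes raised at both 12w and 16w, the 196 members made up 26.2%. Here, raised means that all libraries of a group exceeded 2 times the 0w mean and every 0w library. They also made up 44.7% of the 438 genes raised at both 12w+5dLD and 16w+5dLD (2.46% of all genes). Taken singly, 5.84% of all genes with at least 1 CPM at 0w were raised at 12w, 6.24% at 16w, 3.55% at 12w+5dLD and 3.83% at 16w+5dLD. The members had low counts before cold, with a median of 4.82 CPM and a range from 1.02 to 211 CPM, compared with a median of 22.5 CPM over all genes that had at least 1 CPM. The median member was at 4.76 times its 0w level at 12w and 5.10 times at 16w, and at 4.20 times at 12w+5dLD and 4.91 times at 16w+5dLD. These ratios come from the libraries that chose the members and are given as a description. Measured by the lowest of the 12 libraries, the margin over the 0w mean had a median of 2.71 times and reached 15.3 times in PYK10 (Aa_G101260). It was above 3 times in 82 members, above 5 times in 21, and under 2.5 times in 77. Just inside the limit lay WRKY6 (Aa_G489080, 2.02 times), Aa_G258130 (2.01) and Aa_G173900 (2.00), and just outside lay Aa_G102810 (1.998), Aa_G537930 (1.99) and Aa_G149140 (1.98). A 0w library at 0 counts occurred in 45 members (23.0%) and in 6.74% of all genes with a 0w mean of at least 1 CPM.

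**Figure D1:**
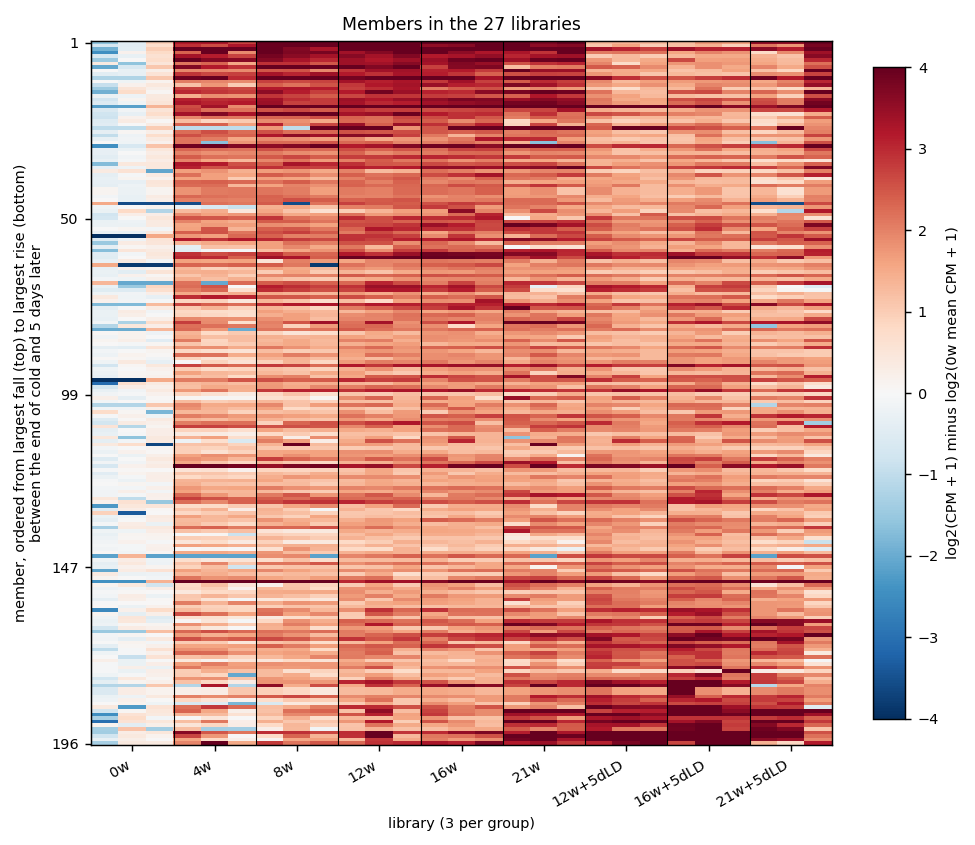
Levels of the 196 members in the 27 libraries, as log2(CPM + 1) minus log2(0w mean CPM + 1), with 1 row per member and 3 columns per group. Rows are ordered by the mean difference between the end of cold and 5 days later after 12 and 16 weeks. The rows at the top are high in cold and lower 5 days later, those at the bottom are highest 5 days later, and the third column of 21w+5dLD looks like the 21w columns.

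The groups that the rule did not use were compared with the same 0w libraries, so their values are given without a test. At 4w, 125 members were raised (63.8%, compared with 4.73% of all genes with at least 1 CPM at 0w), at 8w 153 (78.1%, compared with 5.03%), and at 21w 172 (87.8%, compared with 5.33%). At 21w+5dLD 145 members were raised (74.0%, compared with 2.85%), and 163 were raised when replicate 3 was left out (83.2%, compared with 4.97%). At 4w, 8w and 21w together, 115 members were raised (58.7%, compared with 1.71%), and in all 4 groups together 90 (45.9%, compared with 0.833%), or 95 without 21w+5dLD replicate 3 (48.5%, compared with 0.878%). The median member reached 3.40 times the 0w level at 4w and 3.80 times at 8w. It reached 5.10 times at 21w and 4.44 times at 21w+5dLD. Most members had thus left the 0w range within the first weeks of cold, and the share of members beyond it was highest at 21w among these groups.

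**Figure D2:**
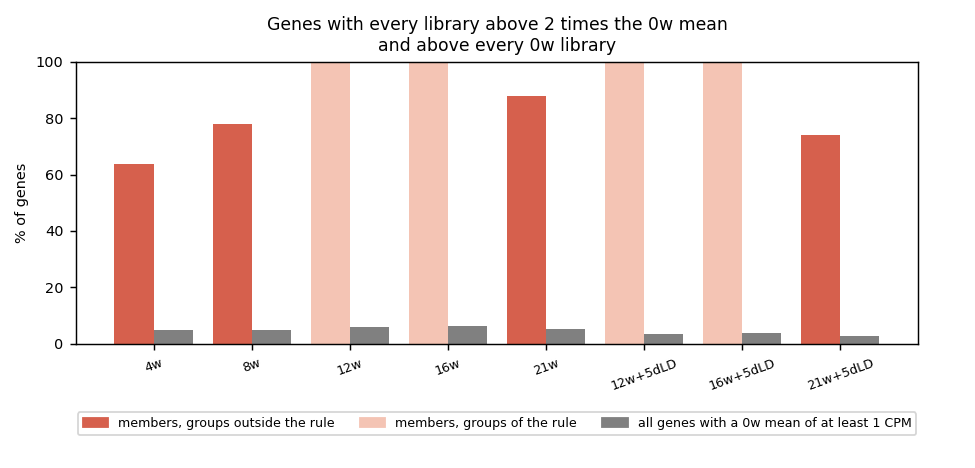
Share of genes, in percent, with every library of a group above 2 times the 0w mean and above every 0w library, for the 196 members and for all 17769 genes with a 0w mean of at least 1 CPM. The members reach 100% by construction in the 4 groups of the rule (pale bars) and between 63.8% and 87.8% in the groups outside it (dark bars), while all genes stay between 2.85% and 6.24%.

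Among the 32 lists of known genes, the circadian clock gave 6 members, more than any other list. The B-box family also gave 6, but was listed after the members had been seen and is not ranked with these lists. Of 22 clock genes with at least 1 CPM at 0w, 10 were raised at both 12w and 16w (4.21% of all genes) and 6 were members (1.1% of all genes). They were LHY (Aa_G211810) and RVE8 (Aa_G34770), both MYB factors of the morning loop, RVE4 (Aa_G260790), the relative of RVE8, PRR9 (Aa_G638260), the earliest PSEUDO-RESPONSE REGULATOR of the day, LNK1 (Aa_G268410), a co-activator that works with RVE8, and CDF2 (Aa_G169330), a DOF factor that represses flowering genes. CDF1 (Aa_G13510), CDF3 (Aa_G487880), PRR7 (Aa_G260760) and RVE1 (Aa_G523390) were raised at 12w and 16w but were no members. LHY had 17.2, 14.6 and 25.6 CPM at 0w, followed by 81.2, 126 and 150 at 16w and 313, 282 and 272 at 16w+5dLD. All 16w+5dLD libraries lay above all 16w libraries, whereas 12w+5dLD (259, 109 and 124) overlapped with 12w (147, 113 and 142). LNK1 had 50.9, 41.0 and 54.6 CPM at 0w, with 120, 130 and 117 at 12w and 228, 231 and 156 at 12w+5dLD. It was higher without overlap after both 12 and 16 weeks of cold.

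The other clock members were highest in cold. CDF2 had 4.52, 6.13 and 10.5 CPM at 0w, compared with 82.0, 90.2 and 97.9 at 16w and 37.9, 45.9 and 27.7 at 16w+5dLD. PRR9 was at 7.91 times its 0w mean at 16w and at 5.07 times at 16w+5dLD, and RVE4 at 4.82 and 2.56 times. RVE8 had 0.347, 2.71 and 8.80 CPM at 0w and between 31.6 and 51.4 CPM in all 12w+5dLD and 16w+5dLD libraries. Its other values were split, with 318 to 419 CPM in the 8 libraries where a neighbouring gene was listed with the same count (7 in cold and 21w+5dLD replicate 3), and 31.6 to 104 CPM in the other libraries after 0w. PRR9, RVE4, CDF2 and RVE8 were all lower without overlap after both 12 and 16 weeks.

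Of 8 clock genes of the evening, a set picked from the clock list after its values had been seen, 6 lay below every 0w library in all 12w+5dLD and 16w+5dLD libraries (TOC1, PRR5, ELF4, LUX, BOA and FKF1), while GI (Aa_G121780) and ELF3 (Aa_G661860) did not. These genes were no members. The share of all genes that lay below 0w in this way was not counted. TOC1 (Aa_G448830) had 194, 212 and 236 CPM at 0w and 15.4, 13.8 and 24.1 at 16w+5dLD, and PRR5 (Aa_G45380) had 135, 133 and 158 at 0w and 7.79, 11.3 and 8.16 at 16w+5dLD. At 16w, TOC1 had 250.9, 250.1 and 254.7 CPM and PRR5 had 179.8, 209 and 192 CPM. After the return, LHY and PRR9 thus lay above their 0w libraries and TOC1 and PRR5 below theirs, while RVE1, raised in cold, was back at its 0w level (means of 5.63 CPM at 0w and 4.39 at 16w+5dLD). The part of the hour of harvest in these levels was not tested. At 21w+5dLD, TOC1 had 16.5 and 24.3 CPM in replicates 1 and 2 and 248 CPM in replicate 3. LHY had 352 and 278 CPM in replicates 1 and 2 and 66.1 in replicate 3.

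The B-box family, listed after the members had been seen, had 6 members among its 24 genes that had at least 1 CPM at 0w. Of these 24 genes, 12 were raised at both 12w and 16w. The members were BBX25 (Aa_G167490), a partner of the light-signalling factor HY5 that acts as a repressor, and BBX28 (Aa_G107310), BBX29 (Aa_G531320), BBX30 (Aa_G351580), BBX31 (Aa_G455770) and BBX32 (Aa_G162010), which carry a single B-box and no CCT domain. BBX30 and BBX31 are microproteins that bind CONSTANS in A. thaliana. BBX25 had 20.5, 25.9 and 43.7 CPM at 0w, followed by 265, 293 and 243 at 16w and 198, 167 and 167 at 16w+5dLD. BBX29 had 2.14, 4.80 and 6.11 CPM at 0w, with 61.8, 71.5 and 69.2 at 16w and 30.6, 33.7 and 29.9 at 16w+5dLD. BBX28 followed the same order, at 15.4 times its 0w mean at 16w and 9.74 times at 16w+5dLD. These genes were lower after the return from both durations without overlap, and all their returned libraries stayed above every 0w library.

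BBX30 differed, with 0.579, 1.38 and 1.09 CPM at 0w, compared with 5.50, 5.10 and 4.23 at 16w and 9.67, 6.59 and 9.03 at 16w+5dLD. It was higher without overlap after both 12 and 16 weeks of cold. From 21w to 21w+5dLD, BBX30 was not called, with a log2 fold change below 0 (-0.62, SE 0.407, edgeR adjusted p = 0.468). Without replicate 3 it was -0.71 (SE 0.472, edgeR adjusted p = 0.362). BBX31 was at 3.89 times its 0w mean at 16w and 5.40 times at 16w+5dLD, and BBX32 at 3.86 and 5.61 times. After 12 weeks, BBX31 was at 3.63 times at 12w and 4.28 times at 12w+5dLD and BBX32 at 3.13 and 2.78 times, with overlap in both genes. Of the B-box genes with a CCT domain, COL1 (Aa_G356670), COL2 (Aa_G42560), COL5 (Aa_G227750), COL6 (Aa_G110390) and CO (Aa_G356690) were raised at 12w and 16w and none was a member. COL2 had 179, 179 and 202 CPM at 16w and 5.57, 4.47 and 6.04 at 16w+5dLD, close to its 0w mean of 5.46.

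**Figure D3:**
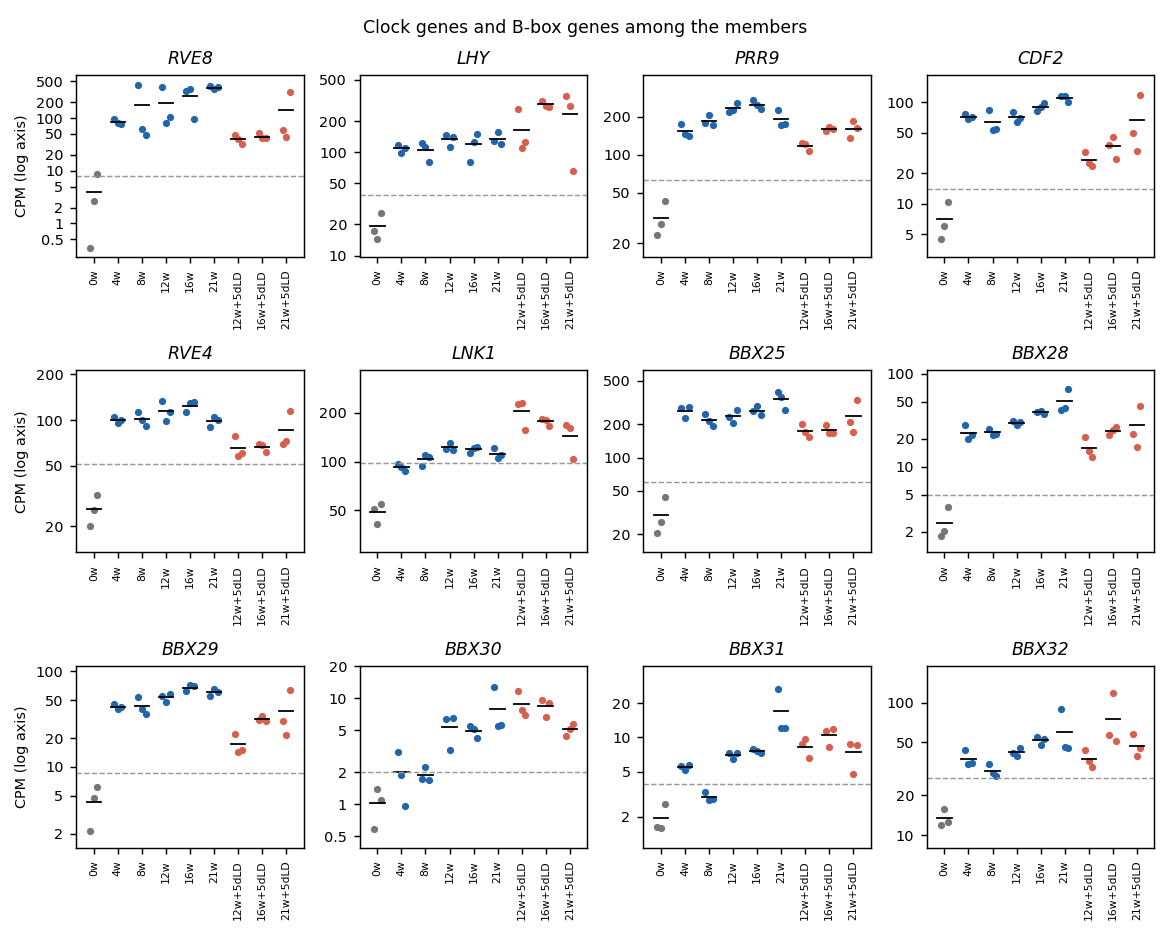
CPM on a log axis of the 6 clock members and the 6 B-box members in the 9 groups, with 1 point per library and a bar at the group mean. Grey marks 0w, blue the groups in cold, red the groups 5 days after cold, and the dashed line 2 times the 0w mean. LHY, LNK1 and BBX30 have their highest or near-highest points after cold, while CDF2, BBX28 and BBX29 step down but stay above the line.

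Of the named members, 9 had roles in development. SOC1 (Aa_G15970), a MADS factor that integrates flowering signals, was the only member among 13 expressed genes of the flowering and vernalization list. It had 5.15, 12.2 and 14.5 CPM at 0w, followed by 81.3, 107 and 116 at 12w and 38.2, 33.0 and 40.0 at 12w+5dLD. Its level after the return was thus 3.49 times the 0w mean, and all 12w+5dLD libraries lay below all 12w libraries. CUC1 (Aa_G1120), a NAC factor that sets organ boundaries, was the only member among 9 expressed genes of the root formation list. It had 8.57, 9.19 and 9.98 CPM at 0w, with 33.6, 29.9 and 24.9 at 16w and 31.7, 30.1 and 26.8 at 16w+5dLD. The 16w and 16w+5dLD libraries overlapped, whereas all 12w+5dLD libraries lay below all 12w libraries. NAC038 (Aa_G310010, 5.27 times 0w at 16w+5dLD), LBD36 (Aa_G180750, 5.00 times), the homeodomain gene BEL1 (Aa_G165300, 3.51 times), the AP2 factor TOE3 (Aa_G165870, 3.28 times), the AT-hook gene AHL23 (Aa_G652540) and the kinase gene IRE (Aa_G316000, 6.28 times) were further members. ALF4 (Aa_G412760), which is needed for lateral roots in A. thaliana, was at 4.82 times its 0w mean at 16w+5dLD, but was at 0 in 2 of the 0w libraries and in 1 of the 4w libraries.

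Stress signalling was represented by 11 members. HB7 (Aa_G332710) and HB12 (Aa_G2230) are homeodomain-leucine zipper factors induced by abscisic acid and drought. HB12 had 14.6, 15.2 and 23.7 CPM at 0w, compared with 69.0, 66.9 and 60.7 at 16w and 209, 96.5 and 150 at 16w+5dLD, and was higher without overlap after both durations. HB7 had 22.5, 25.5 and 32.1 CPM at 0w and overlapping levels at 16w (75.5, 93.6 and 83.5) and 16w+5dLD (108, 125 and 87.8). The paralogs thus shared the raised level, and of the pair only HB12 lay above its cold level after both returns. The NAC factor gene NAC056 (Aa_G424000) and WRKY6, a factor known from senescence, were also higher without overlap after both durations, WRKY6 at 2.57 times its 0w mean at 16w and 7.15 times at 16w+5dLD. In contrast, the kinase gene SNRK2.8 (Aa_G508920) was at 8.42 times at 16w and 3.11 times at 16w+5dLD, WRKY57 (Aa_G446020) at 4.27 and 2.97 times and WRKY65 (Aa_G348140) at 10.2 and 4.14 times. These 3 genes were lower without overlap after both durations. MYC4 (Aa_G152240), a factor of jasmonate signalling, the kinase gene MKK9 (Aa_G524720), HSFA4A (Aa_G203350) and the glutaredoxin gene GRXS13 (Aa_G134580) completed the group.

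A few genes for compatible solutes and for carbon and nitrogen storage were members. They were 1 of 7 expressed genes of the list for raffinose family sugars and 1 of 15 for sucrose and sugar transport. The amino acid list gave 2 of 12 and the starch list 0 of 14. P5CS1 (Aa_G38090), the rate-limiting enzyme of proline synthesis, had 58.2, 60.8 and 92.7 CPM at 0w, followed by 496, 477 and 399 at 16w and 172, 161 and 159 at 16w+5dLD. It was lower than in cold without overlap after both durations but still at 2.33 times the 0w mean at 16w+5dLD. GOLS1 (Aa_G453030), which makes galactinol, the precursor of raffinose, had 0.637, 4.75 and 18.7 CPM at 0w, with 132, 132 and 109 at 16w and 43.2, 51.3 and 59.8 at 16w+5dLD. GOLS1 showed the same order as P5CS1 after both durations. SUS3 (Aa_G191670), a sucrose synthase, had 30.4, 43.4 and 56.7 CPM at 0w, compared with 271, 144 and 173 at 16w and 275, 305 and 190 at 16w+5dLD, with overlap between cold and return. SAMDC2 (Aa_G56490), an enzyme of polyamine synthesis, was at 8.93 times its 0w mean at 16w and 6.18 times at 16w+5dLD, and LSU2 (Aa_G392350), a gene known from sulfur deficiency, at 4.24 and 2.52 times.

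ASN1 (Aa_G41600), the asparagine synthetase that stores nitrogen in the dark and under low sugar, was higher after the return. It had 0, 11.2 and 10.1 CPM at 0w, followed by 45.1, 29.3 and 18.7 at 16w and 80.2, 104 and 51.7 at 16w+5dLD. PYD4 (Aa_G24260), an aminotransferase of pyrimidine breakdown, was at 6.34 times its 0w mean at 16w and 23.7 times at 16w+5dLD. ASN1 and PYD4 were both higher without overlap after both durations. OASA2 (Aa_G96510) was listed with 731.7 and 619 CPM in 2 of the 16w+5dLD libraries and 15.1 in the other, and in 11 libraries it had the same count as a neighbouring gene.

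Among the 8 named transport genes, PHT1;4 (Aa_G216900), a phosphate transporter, had the largest difference after cold. It had 1.22, 2.18 and 1.73 CPM at 0w, with 9.90, 7.73 and 8.88 at 16w and 106, 96.2 and 50.2 at 16w+5dLD, and was the only member among 6 expressed genes of the phosphate starvation list. DUR3 (Aa_G290900), a urea transporter, had 0, 5.95 and 9.07 CPM at 0w, compared with 43.2, 27.3 and 26.9 at 16w and 62.7, 56.2 and 44.3 at 16w+5dLD. PHT1;4 and DUR3 were higher without overlap after both durations. The vacuolar calcium exchanger gene CAX3 (Aa_G235880) was at 8.38 times its 0w mean at 16w and 12.7 times at 16w+5dLD, but at 10.4 times at 12w and 9.36 times at 12w+5dLD. The potassium channel gene GORK (Aa_G575760) was at 11.2 and 11.4 times, the chloride channel gene CLC-B (Aa_G508060) at 5.53 and 4.06 times, and the proline transporter gene PROT2 (Aa_G386950) at 3.73 and 5.62 times. G3PP1 (Aa_G458680), a glycerol-3-phosphate permease, and NCS1 (Aa_G509400), a plastid nucleobase transporter, were also members.

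Plastid genes among the members were ELIP1 (Aa_G413630), CAO (Aa_G27690), CCD4 (Aa_G78200) and ABCF5 (Aa_G20820). ELIP1, a light stress protein that binds chlorophyll, had 16.8, 13.5 and 19.9 CPM at 0w, followed by 149, 158 and 123 at 16w and 38.0, 41.9 and 53.0 at 16w+5dLD. It was the only member among 14 expressed genes of the cold-regulated list, in which LEA14, ZAT12 and COR27 were also raised at 12w and 16w. CAO, which makes chlorophyll b, and CCD4, which cleaves carotenoids, were at 2.57 and 2.52 times their 0w means at 16w+5dLD. ABCF5 was at 5.24 times.

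A further 16 members, grouped after they had been seen, had homologs with roles in defense, secretion and the cell wall. PYK10, a beta-glucosidase of endoplasmic reticulum bodies, had 0, 0 and 10.5 CPM at 0w, with 186, 215 and 140 at 16w and 53.8, 78.9 and 55.8 at 16w+5dLD. Its neighbours in the genome, Aa_G101280 and Aa_G403780, were members as well, the latter with a count shared with a neighbour in 24 libraries. PRX54 (Aa_G386330), a class III peroxidase, had 2.72, 3.73 and 7.93 CPM at 0w, compared with 51.0, 55.4 and 65.0 at 16w and 13.2, 15.7 and 15.6 at 16w+5dLD. PYK10 and PRX54 were lower without overlap after both durations, and PRX54 shared its count with a neighbouring gene in 6 libraries.

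Other genes of this group were higher after cold than in cold. BBE8 (Aa_G279770), a berberine bridge enzyme-like gene, had 4.11, 10.6 and 8.70 CPM at 0w, followed by 36.7, 38.6 and 50.1 at 16w and 625, 599 and 221 at 16w+5dLD. CYP81F1 (Aa_G306090), a cytochrome P450 gene, had 11.1, 7.19 and 11.9 CPM at 0w, with 23.5, 47.7 and 30.3 at 12w and 107, 110 and 81.3 at 12w+5dLD. BGLU46 (Aa_G300690), which hydrolyses monolignol glucosides, had 0, 7.15 and 6.15 CPM at 0w, compared with 37.7, 23.3 and 19.1 at 16w and 109, 110 and 79.3 at 16w+5dLD. BBE8, CYP81F1, BGLU46, the glucosyltransferase gene UGT75D1 (Aa_G608520), the exocyst gene EXO70H2 (Aa_G661230) and the osmotin gene OSM34 (Aa_G352500) were higher without overlap after both durations. The beta-1,3-glucanase gene AT4G16260 (Aa_G380680) was at 20.5 times its 0w mean at 16w and 23.4 times at 16w+5dLD, and UGT72E1 (Aa_G209280), which glucosylates monolignols, at 21.5 and 19.1 times. The chitinase gene CHIA (Aa_G46250) was at 8.50 and 7.58 times, and the protease inhibitor gene KTI1 (Aa_G403170) at 2.89 and 6.41 times. At 16 weeks, AT4G16260, UGT72E1 and CHIA overlapped between cold and return. AT4G16260 shared its count with a neighbouring gene in 3 libraries, among them 16w replicate 2. PRX71 (Aa_G268360), BBE4 (Aa_G415750), BBE28 (Aa_G103050) and EXO70H4 (Aa_G34880) completed the group, at 4.30, 31.4, 9.37 and 16.4 times their 0w means at 16w+5dLD.

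**Figure D4:**
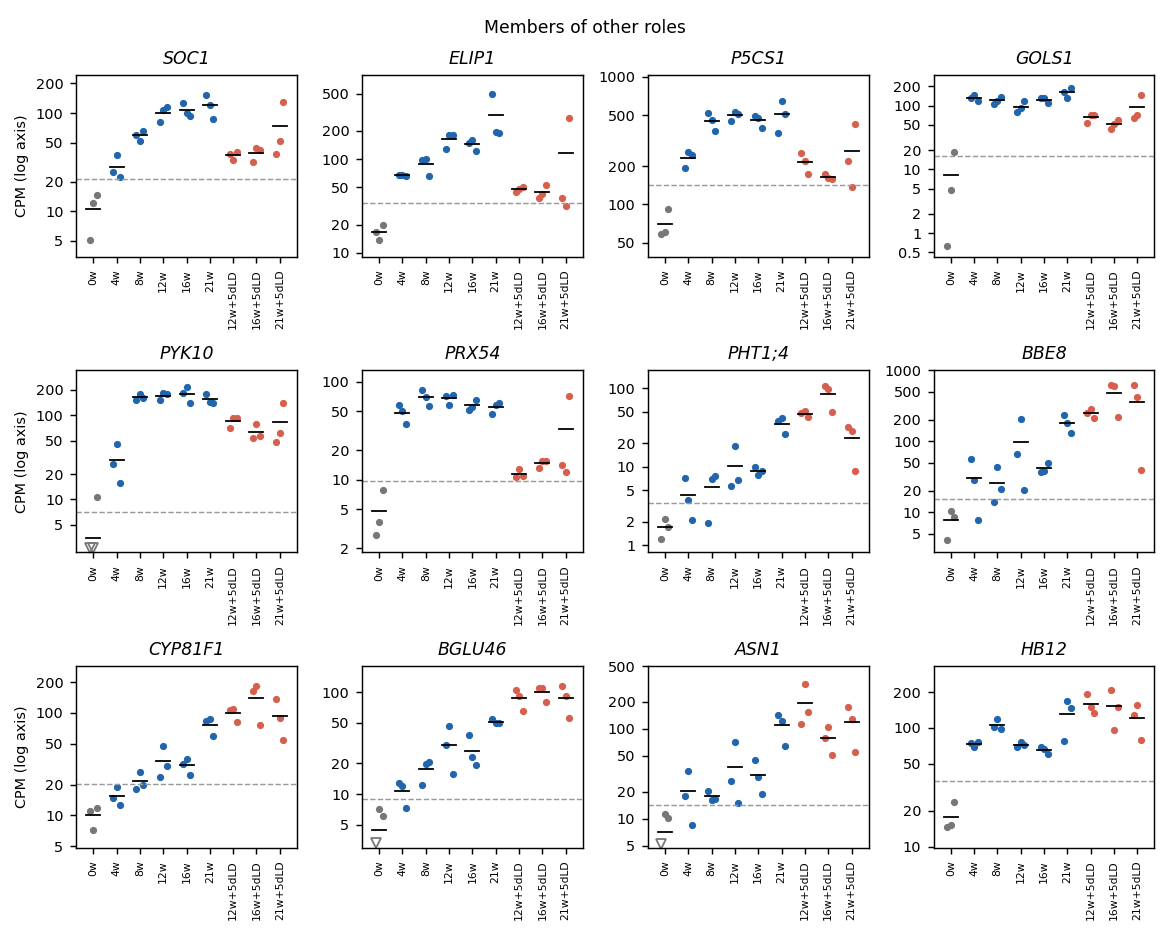
CPM on a log axis of 12 members of other roles in the 9 groups, with 1 point per library and a bar at the group mean. Grey marks 0w, blue the groups in cold, red the groups after cold, open triangles at the lower edge libraries at 0, and the dashed line 2 times the 0w mean. SOC1, ELIP1, P5CS1, GOLS1, PYK10 and PRX54 are lower 5 days after 12 and 16 weeks than at the end of cold, and PHT1;4, BBE8, CYP81F1, BGLU46, ASN1 and HB12 are higher.

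The 4 members with the highest mean CPM at 16w+5dLD had no assigned role. Aa_G296490, without an A. thaliana homolog, had 192, 198 and 242 CPM at 0w and 1244, 1617 and 636 CPM at 16w+5dLD, and shared its count with a neighbour in 9 libraries. Aa_G878910, also without a homolog, had 161, 173 and 138 CPM at 0w, followed by 568, 497 and 345 at 16w and 989, 1054 and 1050.5 at 16w+5dLD. Aa_G354970 had 30.6, 55.3 and 62.4 CPM at 0w and 815, 265 and 610.3 CPM at 16w+5dLD. The homolog of AT3G45160, Aa_G672730, had 115, 154 and 244 CPM at 0w, with 1058, 1100.1 and 1151 at 16w and 478, 592 and 595 at 16w+5dLD. Aa_G672730 was lower without overlap after both durations, Aa_G878910 was higher, and the other 2 genes overlapped between cold and return.

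Between the end of cold and 5 days later, members differed in both directions. The ratio of 12w+5dLD to 12w had a median of 0.926 (quartiles 0.656 and 1.33), and that of 16w+5dLD to 16w a median of 0.971 (0.649 and 1.47). Over all genes with a 0w mean of at least 1 CPM, these medians were 1.06 and 1.07. Of the members, 95 were higher and 101 lower on average over the 2 durations. Both groups were used by the rule, which required high levels in them, so the following counts are a description. After 12 weeks, 44 members were higher without overlap (22.4%, compared with 27.5% of all genes with at least 1 CPM at 0w) and 64 lower (32.7%, compared with 18.7%). After 16 weeks, 47 were higher (24.0%, compared with 29.2%) and 61 lower (31.1%, compared with 19.9%). After both durations, 28 members were higher (14.3%, compared with 18.9%) and 50 lower (25.5%, compared with 12.2%).

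Of the members lower without overlap after both returns, the 6 with the smallest ratio of mean CPM after to before the return (geometric mean over the 2 durations) included RVE8, PRX54 and the homolog of AT5G62210, Aa_G315910. The last had 43.0, 46.0 and 63.8 CPM at 16w and 7.59, 8.83 and 6.18 at 16w+5dLD, with 1.33, 1.73 and 5.15 at 0w. Aa_G20030 had 299, 264 and 238 CPM at 16w and 29.2, 40.6 and 38.3 at 16w+5dLD, and shared its count with a neighbour in 19 libraries. These included all 12w and 16w libraries and 12w+5dLD replicate 3, but no 16w+5dLD library. The part of the shared counts in its lower level after the return was not tested. Aa_G367450 and Aa_G320640 completed this set. Among members higher without overlap after both returns, the 6 with the largest ratio by the same measure were PHT1;4, BBE8, CYP81F1, Aa_G636090, Aa_G51690 and Aa_G656960. Aa_G636090 had 19.7, 28.7 and 34.2 CPM at 16w and 118, 105 and 84.6 at 16w+5dLD.

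The return after 21 weeks, in libraries that the rule did not use, went mostly in the same direction, in members as in all genes. Of the 50 members that were lower after both 12 and 16 weeks, 45 were also lower on average at 21w+5dLD than at 21w, a share to be read beside 88.4% of the 2164 such genes among all. Without replicate 3, 48 were lower (compared with 93.1% of such genes). Of the 28 that were higher, 22 were also higher at 21w+5dLD (78.6%, compared with 85.4% of 3350 genes), and 23 without replicate 3 (82.1%, compared with 89.6%). Without overlap, 9 members were higher at 21w+5dLD (4.59%, compared with 6.69% of all genes with at least 1 CPM at 0w) and 28 lower (14.3%, compared with 7.01%). Without replicate 3, the remaining 2 libraries were both higher in 33 members (16.8%, compared with 24%) and both lower in 77 (39.3%, compared with 23.1%).

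In edgeR's quasi-likelihood test over all 27 libraries (adjusted p under 0.05 by Benjamini-Hochberg over 19337 genes and at least 2-fold), 4 members fell between 21w and 21w+5dLD (2.04%, compared with 0.176% of all genes) and 0 rose (compared with 0.217%). At an unadjusted p under 0.05, 8 were higher and 37 lower, and DESeq2 called 2 higher and 7 lower. Shares of all genes are not given for these settings, so these counts cannot be set against them. With the replicate block 1 member was lower, and with only the 21w and 21w+5dLD libraries in the fit 0 were. The 4 were Aa_G378380, Aa_G509370, Aa_G121920 and Aa_G204120, with log2 fold changes of -1.88, -1.56, -1.21 and -1.08 (SE 0.385, 0.365, 0.239 and 0.210, adjusted p in edgeR 0.0418, 0.0495, 0.0359 and 0.0359). Aa_G121920 is a homolog of a dirigent protein gene, AT5G42500. Aa_G509370 shared its count with a neighbour in 5 libraries, none of them at 21w or 21w+5dLD. Without replicate 1 or replicate 2 of 21w+5dLD, or replicate 1 of 21w, 0 members fell, and without replicate 2 of 21w 1 fell.

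Without 21w+5dLD replicate 3, 22 members fell (11.2%, compared with 2.9% of all genes) and 4 rose (2.04%, compared with 2.94%). Among those that fell were P5CS1, ELIP1, SOC1, CDF2, BBX28, BBX29, BBX31, SAMDC2, PROT2, CHIA, WRKY65 and PRX54, and LHY, Aa_G636090, its neighbour Aa_G636100 and Aa_G878910 rose. Aa_G636090 and Aa_G636100 had the same count in 21w+5dLD replicate 2. ELIP1 had 498, 192 and 190 CPM at 21w and 38.7, 31.4 and 275 at 21w+5dLD, with the third library in the range of 21w. Its log2 fold change was -3.05 (SE 0.351, edgeR adjusted p = 1.35e-05) without this library and -1.33 (SE 0.543, adjusted p = 0.212) with it. P5CS1 had 364, 652 and 510 CPM at 21w and 219, 138 and 424 at 21w+5dLD, with -1.51 (SE 0.262, edgeR adjusted p = 0.000646) without this library and -0.96 (SE 0.294, adjusted p = 0.0955) with it. SOC1 had 154, 120 and 87.0 CPM at 21w and 37.8, 51.8 and 130 at 21w+5dLD, with -1.42 (SE 0.340, edgeR adjusted p = 0.00791) without it and -0.70 (SE 0.373, adjusted p = 0.351) with it. LHY changed by 1.23 (SE 0.303, edgeR adjusted p = 0.00924) without it and by 0.80 (SE 0.407, adjusted p = 0.326) with it. In all 4 genes, replicate 3 lay on the side of 21w. These 4 genes were called only without this library, so this position follows from their choice. The library itself was singled out by its closeness to 21w over the members. The counts and p-values without it are therefore a description.

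PHT1;4, among the members with the largest increase after both shorter durations, had 38.1, 41.5 and 25.8 CPM at 21w, already above all 12w and 16w libraries, and 31.9, 28.1 and 8.94 at 21w+5dLD. These groups overlapped (log2 fold change -0.60, SE 0.532, edgeR adjusted p = 0.639, and -0.22, SE 0.544, adjusted p = 0.886 without replicate 3). Whether this differs from the return after 12 or 16 weeks was not tested.

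**Figure D5:**
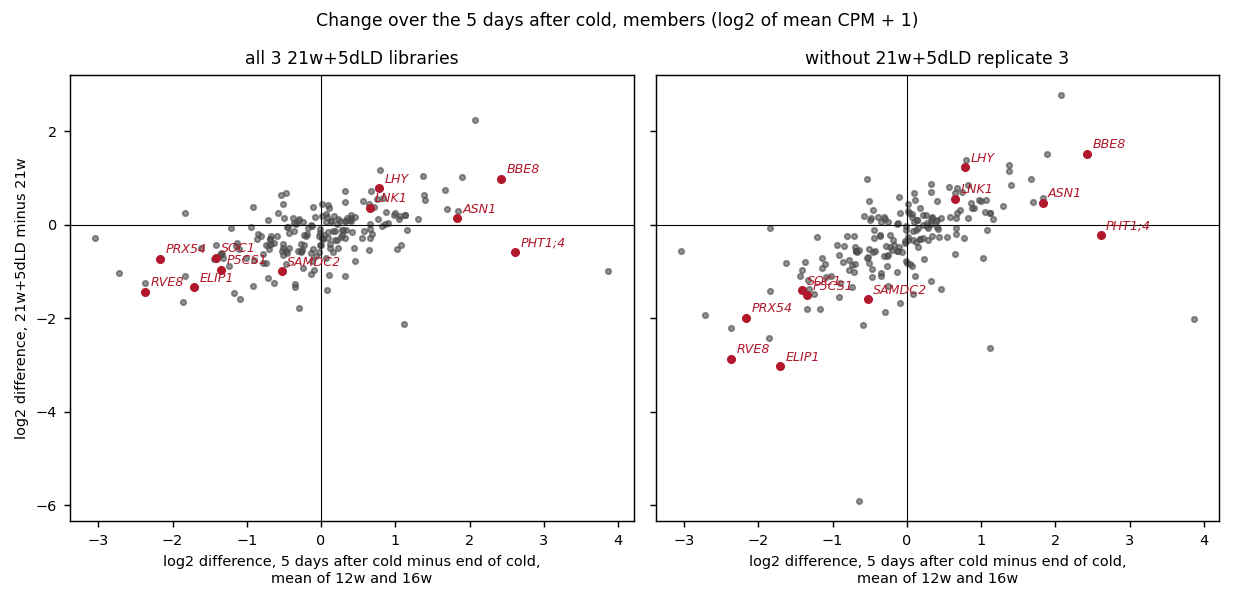
Difference in log2(mean CPM + 1) between 5 days after cold and the end of cold for the 196 members, for the mean of 12w and 16w on the horizontal axis and for 21w on the vertical axis, with all 3 21w+5dLD libraries (left) and without replicate 3 (right). Named genes are in red. Most genes that are lower after 12w and 16w are lower after 21w too, with larger differences on the right, and PHT1;4 is to the right of 0 on the horizontal axis but below 0 on the vertical axis.

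Among the cold durations outside the rule, more members rose than fell. The rule required high levels later in cold but set none at 4w or 8w. It thus favours genes that rise with time in cold, whereas all genes were not chosen in this way. The counts and shares of members are therefore a description, and the part of the choice in them was not tested. From 4w to 21w, 34 members rose (17.3%, compared with 2.16% of all genes) and 4 fell (2.04%, compared with 2.36%) in edgeR's test. From 8w to 21w, 16 rose (8.16%, compared with 2.18%) and 6 fell (3.06%, compared with 2%). From 4w to 8w, 3 rose (1.53%, compared with 0.103%) and 0 fell (compared with 0.119%). At an unadjusted p under 0.05, 4 were lower, and DESeq2 called 1 lower, with no share of all genes given. The comparisons of 21w with 4w and with 8w share the 21w libraries. The median log2 fold change of the members was 0.40 from 4w to 21w, 0.16 from 8w to 21w and 0.23 from 4w to 8w, compared with 0.01, 0.01 and 0.00 over all genes tested. Leaving out 4w replicate 3 gave 22 risen members in place of 34. The 4 that fell became 1 without 21w replicate 1, 7 without 21w replicate 2 and 2 without 4w replicate 1. The 6 that fell from 8w became 3 without 21w replicate 1, and the 3 that rose from 4w to 8w became 1 without 4w replicate 1, 4w replicate 3, 8w replicate 2 or 8w replicate 3.

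PHT1;4 rose from 7.13, 3.71 and 2.12 CPM at 4w to 38.1, 41.5 and 25.8 at 21w (log2 fold change 2.84, SE 0.571, edgeR adjusted p = 0.00264). SOC1 had 25.2, 37.5 and 22.6 CPM at 4w and 154, 120 and 87.0 at 21w (1.89, SE 0.384, edgeR adjusted p = 0.0029). The groups did not overlap in either gene. SAMDC2 had 77.1, 85.3 and 82.4 CPM at 4w and 616, 368 and 263 at 21w (2.16, SE 0.338, edgeR adjusted p = 0.000334). BBE4, CLC-B, CHIA, CYP81F1, EXO70H4, UGT75D1, ELIP1, BBX30, BBX31, MYC4, NAC056, PROT2 and BBE28 also rose from 4w to 21w.

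CLC-B had 16.0, 12.5 and 10.3 CPM at 4w and 55.0, 60.5 and 46.2 at 8w, a rise of 2.04 on the log2 scale (SE 0.248, edgeR adjusted p = 0.000443), from a 4w level below its 0w values of 17.5, 20.2 and 22.2. BBE28 and Aa_G238330 were the other members that rose from 4w to 8w. From 8w to 21w, BBX31 rose from 3.34, 2.82 and 2.86 CPM to 26.7, 12.2 and 12.2 (log2 fold change 2.33, SE 0.300, edgeR adjusted p = 5.44e-05). Aa_G663520, the homolog of a glutaredoxin gene, AT5G11930, rose from both 4w (3.28, SE 0.507, edgeR adjusted p = 0.000292) and 8w (2.52, SE 0.490, adjusted p = 0.00236), and the MYB gene Aa_G246250 rose from 4w (3.68, SE 0.810, adjusted p = 0.0053). With all libraries, 1 of the 22 clock genes tested was called in 1 of the 4 contrasts, PRR5, which was no member, with -1.79 from 8w to 21w (SE 0.559, edgeR adjusted p = 0.0476). Of the 25 B-box genes tested, BBX30 and BBX31 rose from both 4w and 8w to 21w, and COL15 (Aa_G48010) fell from 8w to 21w. From 21w to 21w+5dLD without replicate 3, 9 of the 22 clock genes fell and 1 rose. Of the 25 B-box genes, 10 fell and 1 rose. Over all genes in this fit, 2.9% fell and 2.94% rose. The library left out was singled out by its closeness to 21w, so these counts are a description. In both lists, the called genes also included some that were no members. The called members of the clock were CDF2, which fell, and LHY, which rose. Those of the B-box genes were BBX28, BBX29 and BBX31, which fell. With all 3 libraries of 21w+5dLD, 0 genes of either list were called. The adjusted p of these 5 members in edgeR's quasi-likelihood test then ranged from 0.0526 to 0.326.

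Of the members that fell with time in cold, Aa_G748480 had 579, 408 and 334 CPM at 4w, compared with 960, 1076 and 755 at 8w and 104, 182 and 189 at 21w. It fell by 1.65 on the log2 scale from 4w (SE 0.514, edgeR adjusted p = 0.044) and by 2.71 from 8w (SE 0.534, adjusted p = 0.00265). Aa_G88370, Aa_G198710 and Aa_G509370 fell from both 4w and 8w, and Aa_G156080 and Aa_G243620 from 8w. Aa_G509370 shared its count with a neighbour in 4w replicate 3 and in all 8w libraries, but in no 21w library. The part of the shared counts in its fall was not tested. The 21w values of Aa_G748480 still exceeded every 0w library (9.78, 28.1 and 93.9).

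The 2 members with the largest fitted change from 4w to 21w were unstable between libraries. Aa_G385170, the homolog of an amidase gene, AT4G34880, was at 0 in all 4w libraries, had 5.72, 0 and 66.3 CPM at 8w and 89.4, 99.4 and 83.0 at 21w. Aa_G556680 was also at 0 in all 4w libraries and was at 0 in 1 of the 21w libraries and at 20.8 CPM or more in the other 2. Such counts, with 0 in 1 library of a group and at least 5 CPM in another, were found in 31 members (15.8%, compared with 15.5% of all genes with at least 1 CPM at 0w). Among these members were AT4G16260, GORK, PYD4, IRE, TOE3, HSFA4A, PRX71, PYK10, ASN1, DUR3, BGLU46 and ALF4, whose ratios to 0w are thus uncertain.

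The members were spread over all 8 chromosomes. Locus codes placed 187 of them, between 11 of 2175 genes on chromosome 1 (0.506%) and 24 of 1680 on chromosome 4 (1.43%). A homolog in A. thaliana was listed for 150 members (76.5%, compared with 79.4% of all genes with at least 1 CPM at 0w). There were 11 pairs of members with successive locus codes, which involved 20 members. In 2 of these pairs, Aa_G254170 with Aa_G254180 and Aa_G93850 with Aa_G93860, the counts were identical in all 27 libraries, and in Aa_G49710 with Aa_G49720 in 22 libraries, so that each pair cannot be counted as separate measurements. PYK10 and Aa_G101280 had different counts and a Pearson correlation of 0.909 over the 27 libraries, which share library and depth. A count of at least 100 identical to that of a neighbour was found in at least 1 library for 32 members (16.3%, compared with 13.4% of all such genes).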

How the data were processed

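The deposited table holds raw counts per gene, which the authors made with HISAT2 and StringTie (versions not given in the sources used here). StringTie estimates such counts from coverage. Further tables hold log2 fold changes and adjusted p-values of the authors' DESeq2 comparisons and were not used. CPM was computed from column totals. Contrasts among 4w, 8w, 21w and 21w+5dLD, which the rule did not use, were tested in R 4.3.3 with edgeR 4.0.16 (TMM with factors from 0.934 to 1.1, filterByExpr, group means over all 27 libraries, quasi-likelihood test, Benjamini-Hochberg over 19337 genes). Genes were called at an adjusted p under 0.05 and at least 2-fold. The spread of each gene was estimated over all 27 libraries, 15 of which were libraries of the rule, so the tests were not fully independent of it. The rule also set no level at 4w or 8w and so favours genes that rise from these groups to later cold. The test was tried on simulated data. DESeq2 1.42.0 served as an alternative.

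Members and lists were chosen with earlier results of these data known. Of 32 lists with 447 loci, all were counted for members. The lists for chromatin memory, starch, lipid desaturation, heat shock, xylem secondary wall, phloem, cambium, epidermis, photosynthesis, flavonoid and anthocyanin, suberin, salicylate and defense, jasmonate, ethylene, abscisic acid, gibberellin, auxin, cytokinin, light signalling, TCP factors, DNA replication and division, glucosinolates, senescence and low oxygen held 0 members. The B-box list and most roles were added after seeing the members. Genes named by rule were members on a list, the 20 with the largest lowest ratio, the 6 called members with the largest change per contrast and direction, 3 genes on each side of the limit, the 10 most abundant at 16w+5dLD, and 6 per direction with the largest difference on return. Symbols follow the A. thaliana locus that the table gives as homolog. P-values measure the spread between libraries of pooled plants. Sequences were not used here.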

Additional observations from a re-analysis of the deposited data

Results flagged for a closer look

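In 3 members, levels differed without overlap in opposite directions after 2 durations of cold, and these differences were not tested. BBX31 was at 1.39 times its 16w level at 16w+5dLD and at 0.433 times its 21w level at 21w+5dLD. Aa_G722720, the homolog of a cytochrome P450 gene, AT5G36110, was at 0.737 times its 12w level at 12w+5dLD and at 1.86 times its 16w level at 16w+5dLD. Aa_G1017930 was at 4.07 times its 12w level at 12w+5dLD and at 0.197 times its 21w level at 21w+5dLD, and was at 0 in 2 of the 0w and 2 of the 4w libraries.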

How the results depend on the processing

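Of 196 members, 96 had a 0w mean of at least 5 CPM, 82 passed at 3-fold, 177 genes passed with TMM-scaled CPM (176 of them members) and 164 had no shared counts. Leaving out 1 library gave 194 to 247 members, with the highest number without 0w replicate 3, where 164 of the 196 were kept. For the counts of raised members, only libraries of the raised group itself were left out, which can only raise these counts. They became 128 to 149 at 4w (125 with all libraries) and 157 to 168 at 8w (153 with all). At 21w they became 177 to 182 (172 with all), and at 21w+5dLD 151 to 163 (145 with all). How far these counts would fall without a 0w library was not tested.

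DESeq2 called 2 members higher and 7 lower at 21w+5dLD against 21w, 7 lower at 21w against 4w, and 9 higher and 1 lower at 8w against 4w. A fit of only the groups compared gave 0 lower at 21w+5dLD and 1 higher at 8w against 4w. Leaving out 1 library gave 0 to 4 higher and 0 to 22 lower members at 21w+5dLD against 21w, 22 to 32 and 1 to 7 at 21w against 4w, 12 to 15 and 3 to 8 at 21w against 8w, and 1 to 4 and 0 at 8w against 4w. Replicate numbers did not pair the libraries (correlations of same-numbered deviations from -0.0154 to 0.0571). With the replicate block, 1 member was lower at 21w+5dLD, and no other count of members moved by more than 1.5 times. No result reversed. The causes were not tested. Apart from the fit without 21w+5dLD replicate 3, shares of all genes are not given for these settings. The counts are therefore compared only with each other. Counts of members that fell are small and depend on single libraries, and low counts at 0w limit the ratios of weakly expressed members.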
